A study of Mus musculus with 9 samples.

Results

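The 9 genes described here encode the platelet-derived growth factors (PDGFs) *Pdgfa*, *Pdgfb*, *Pdgfc* and *Pdgfd*, the PDGF receptors *Pdgfra* and *Pdgfrb*, and the vascular endothelial growth factors (VEGFs) *Vegfa*, *Vegfb* and *Vegfc*. They are 9 of the 19044 genes in a table of estimated RNA-seq read counts from mouse squamous cell carcinoma (SCC) cells. The genes were chosen by family name and because *Pdgfc* was higher in cells with active focal adhesion kinase (FAK). The level of *Pdgfc* in the comparisons with FAK-WT is therefore a description, with no test. The other 8 genes were tested in those comparisons, and all 9 were tested between the remaining pair of cell lines.

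PDGFs are secreted dimers that act on receptor tyrosine kinases, whose signals drive proliferation and migration of mesenchymal cells. The products of *Pdgfa*, *Pdgfb* and *Pdgfc* bind the α receptor encoded by *Pdgfra*, and those of *Pdgfb* and *Pdgfd* bind the β receptor encoded by *Pdgfrb*. PDGF-C and PDGF-D are released as latent factors that proteases must cut, whereas VEGFs act mainly on endothelial receptors and are best known for the growth of blood and lymphatic vessels. Carcinomas commonly use both families to signal to fibroblasts and vessels of the stroma.

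Each of 3 cell lines was represented by 3 replicate libraries, all from the same tumour model. Skin tumours had been raised chemically in FVB mice carrying K14CreER and FAK flox/flox alleles, and the FAK gene (*Ptk2*) was deleted from the excised cells in culture with 4-hydroxytamoxifen, which activates the keratin-driven Cre. FAK-/- cells carry only the deletion. FAK-WT- and FAK-kd-expressing cells carry the same deletion and, stably from a retrovirus, wild-type FAK or kinase-deficient FAK, under hygromycin selection. The constructs were put into 1 FAK-/- clone, so differences between lines that arose during derivation cannot be told apart from effects of FAK. The replicates come from the same lines, and the p-values measure the spread between these libraries only. FAK-WT against FAK-/- cells asks what depends on FAK, and FAK-WT against FAK-kd cells asks what depends on its kinase activity. No retrovirus or hygromycin selection is described for FAK-/- cells, so comparisons with them cannot tell these apart from FAK. Both FAK-WT comparisons share the FAK-WT libraries.

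Levels are given as CPM, read counts scaled to a common library size of 1e6 with edgeR's TMM factors. *Ptk2* was at 212.8, 216.1 and 216.0 CPM in FAK-WT cells, at 19.6 to 23.5 CPM in FAK-/- cells and at 154.8 to 176.2 CPM in FAK-kd cells. Its level was above that of FAK-kd cells in FAK-WT cells by 0.40 on the log2 scale (adjusted p = 0.00163, edgeR), so these 2 lines differed in FAK transcript level as well as in kinase activity. FAK-WT replicate 1 stood apart in depth: it held 779755 counts, 2.31% of the median of the other 8 libraries, which held 25304994 to 37264636. A floor of 3 counts was set for detection, which is 3.78 CPM in that library and 0.0798 to 0.118 CPM in the others. Floors cover counting error only. The main results are therefore also given without this library.

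The cells carried few markers of squamous epithelium. Of 13 such markers, only *Itga6* and *Krt15* had a mean of at least 1 CPM, *Trp63* and *Epcam* were not listed in the table, and the keratin genes *Krt5* and *Krt14*, the cadherin gene *Cdh1* and the desmosomal gene *Dsp* had at most 0.139 CPM in any line. Of 11 fibroblast markers, 5 (*Col1a1*, *Col1a2*, *Col3a1*, *Col5a1* and *Vim*) had a mean of at least 1 CPM and 6 did not. *Vim* was at 7136 to 7988 CPM and *Col3a1* at 1436 to 1704 CPM on average in the 3 lines. *Dcn* and *Fbln1* were under 1 CPM, *Fap*, *Postn* and *Thy1* were near 0, and *Lum* was not listed. Endothelial and macrophage markers summed to at most 7.87 and 3.52 CPM in any library. The squamous label was therefore not borne out by the defining epithelial markers in these libraries, and the lines are called by their FAK genotype below.

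Promoter sequence is shown for *Pdgfc*, the ligand gene that was higher in FAK-WT cells, and for *Pdgfra*, the gene of its receptor, which was lower. The sequences are the 250 bases before the RefSeq start on GRCm38.p6, both on the plus strand, at chr3:81036166-81036415 and chr5:75152001-75152250. Capitals mark GGAA, the core of ETS factor sites, or its reverse complement.
Pdgfc: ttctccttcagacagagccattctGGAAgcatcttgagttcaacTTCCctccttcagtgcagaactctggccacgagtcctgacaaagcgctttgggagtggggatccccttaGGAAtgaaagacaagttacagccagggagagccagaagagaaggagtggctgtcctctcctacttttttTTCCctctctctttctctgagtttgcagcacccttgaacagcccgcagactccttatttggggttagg
Pdgfra: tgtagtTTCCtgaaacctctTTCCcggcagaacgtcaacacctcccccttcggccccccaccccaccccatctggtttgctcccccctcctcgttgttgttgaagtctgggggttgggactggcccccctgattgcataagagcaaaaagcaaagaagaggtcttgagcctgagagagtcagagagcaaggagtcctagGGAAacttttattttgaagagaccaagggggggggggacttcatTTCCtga

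Both windows held 4 matches to GGAA, against a median of 3 in 32851 mouse promoter windows of the same length, 93.4% of which held at least 1. The AP-1 motif TGANTCA was in 6.75% of all windows and the CRE motif TGACGTCA in 1.55%, and neither matched in a window of the 7 members that had one. *Pdgfb* and *Pdgfrb* were not matched to a window. The hypoxia response core ACGTG, in 16.6% of all windows, matched once among the members, in 1 of the 2 windows of *Vegfa*. The matches on both strands were counted, and overlapping letters of the motifs were allowed. They describe letters in these windows and are not binding sites.

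*Pdgfc* was the PDGF ligand gene that was higher in FAK-WT cells. It lies on the plus strand at chr3:81036416-81214040 of mm10 (ENSMUSG00000028019). Its levels were 40.3, 35.0 and 34.0 CPM in FAK-WT replicates 1, 2 and 3, 14.8, 13.1 and 17.1 CPM in FAK-/- cells, and 17.3, 15.8 and 15.4 CPM in FAK-kd cells. Every FAK-WT library was thus above every library of the other lines, and FAK-WT replicate 1, with 32 counts, was the highest. The means were 36.4 ± 3.39, 15.0 ± 2.01 and 16.2 ± 1.02 CPM (SD, n = 3), so that *Pdgfc* in FAK-WT cells was 2.34-fold its level in FAK-/- cells and 2.17-fold that in FAK-kd cells. These are log2 fold changes of 1.23 and 1.12, and of 1.20 and 1.09 without FAK-WT replicate 1. Between FAK-kd and FAK-/- cells, which the choice of genes did not use, the log2 difference was 0.11 (95% interval -0.12 to 0.33, adjusted p = 0.592, edgeR), and the libraries overlapped.

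**Figure D1:**
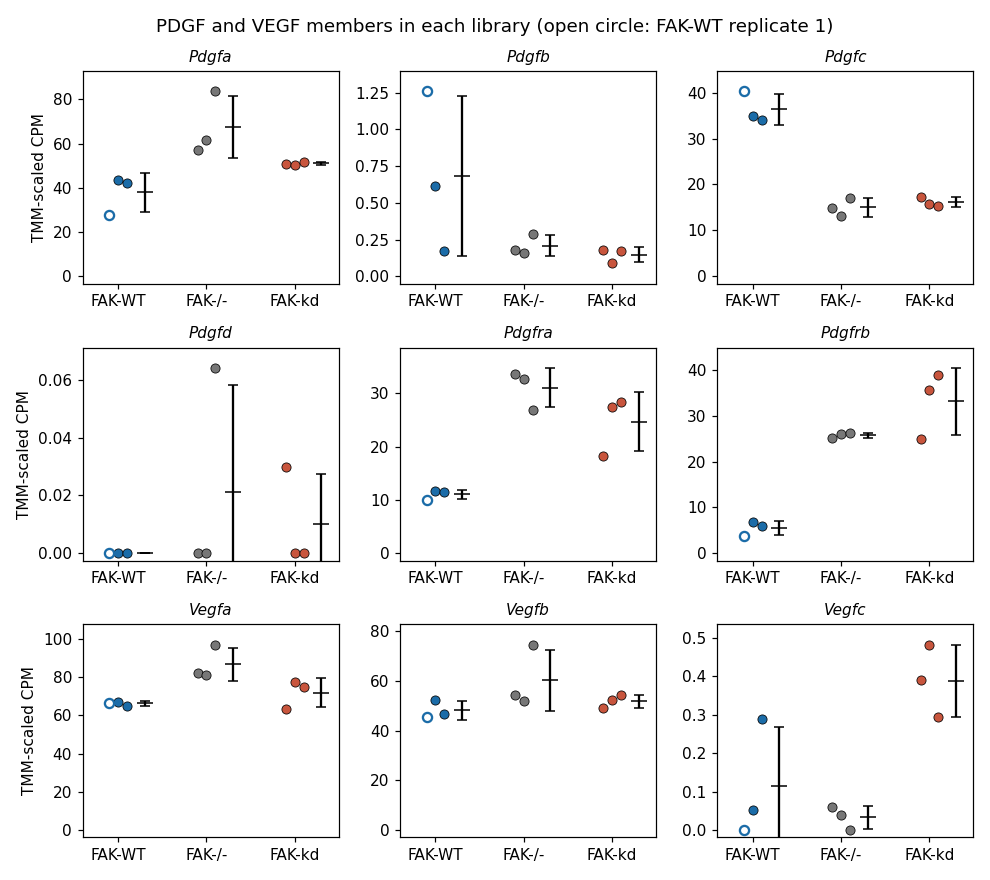
TMM-scaled CPM (linear axis) of the 9 genes in each of 9 libraries, with one panel per gene, points for libraries, an open circle for the shallow FAK-WT replicate 1, and mean ± SD of 3 libraries beside each group. *Pdgfc* lies at 34.0 to 40.3 CPM in FAK-WT cells and at 13.1 to 17.3 CPM elsewhere, *Pdgfra* and *Pdgfrb* are lowest in FAK-WT cells, and *Pdgfb*, *Pdgfd* and *Vegfc* stay at or below 1.26 CPM.

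*Pdgfa* followed a different order from *Pdgfc*. This gene (ENSMUSG00000025856, minus strand, chr5:138976014-138997370) encodes the ligand of α receptor homodimers. It was at 27.7, 43.7 and 42.4 CPM in FAK-WT cells, 57.0, 61.9 and 83.6 CPM in FAK-/- cells, and 50.9, 50.5 and 51.9 CPM in FAK-kd cells. The 3 lines did not overlap, with FAK-WT lowest and FAK-/- highest, and within FAK-/- cells replicate 3 was well above the others. FAK-WT cells had a log2 difference from FAK-/- cells of -0.71 (95% interval -1.01 to -0.42, adjusted p = 0.00181, edgeR), short of the fold minimum used for calls. It was -0.65 without FAK-WT replicate 1, where *Pdgfa* had 22 counts, and -0.49 without FAK-/- replicate 3. The neighbouring steps were not past the test, at -0.31 (-0.60 to -0.02, adjusted p = 0.152) for FAK-WT over FAK-kd and -0.40 (-0.68 to -0.13, adjusted p = 0.0709) for FAK-kd over FAK-/- cells in edgeR. Both depended on the setting: the first had an adjusted p of 0.0268 with only these 2 lines fitted and 0.0059 without FAK-/- replicate 3, and the second of 0.0492 in DESeq2, 0.0410 without FAK-WT replicate 1 and 0.0231 without FAK-/- replicate 1. In bulk libraries such as these, fewer cells of a type and less RNA per cell cannot be told apart.

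The other PDGF ligand genes were close to the detection floor. *Pdgfb* (ENSMUSG00000000489, minus strand, chr15:79995874-80014977), whose product binds both receptors, had 1, 23 and 6 counts in FAK-WT, 6, 4 and 9 in FAK-/-, and 6, 3 and 6 in FAK-kd cells. These are 1.26, 0.612 and 0.173 CPM in FAK-WT cells and 0.0899 to 0.288 CPM in the others, and the groups overlapped. No difference in *Pdgfb* passed the test, with adjusted p of 0.321, 0.131 and 0.697 in FAK-WT over FAK-/-, FAK-WT over FAK-kd and FAK-kd over FAK-/- cells (edgeR). Without FAK-WT replicate 3 the comparison with FAK-kd cells reached a log2 fold change of 2.17 (adjusted p = 0.0481, edgeR), from few counts in FAK-WT replicates 1 and 2. *Pdgfd* (ENSMUSG00000032006, plus strand, chr9:6168584-6378850), the gene of the other latent PDGF, had 2 counts in FAK-/- replicate 3, 1 in FAK-kd replicate 1 and none elsewhere, and it was not detectable at this depth.

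Both PDGF receptor genes were lower in FAK-WT cells than in either other line. *Pdgfra* (ENSMUSG00000029231, plus strand, chr5:75152292-75198215) was at 10.1, 11.7 and 11.4 CPM in FAK-WT cells, 33.5, 32.8 and 26.8 CPM in FAK-/- cells and 18.3, 27.4 and 28.4 CPM in FAK-kd cells. Each FAK-WT value lay below all others, whereas those of FAK-/- and FAK-kd cells overlapped. *Pdgfra* fell in FAK-WT cells, 2.71-fold below FAK-/- cells (log2 fold change -1.44, SE 0.16, adjusted p = 1.3e-05, edgeR) and 2.15-fold below FAK-kd cells (-1.11, SE 0.16, adjusted p = 0.000157). Without FAK-WT replicate 1, which had 8 counts, these values were -1.42 and -1.10. The call against FAK-kd cells rested on FAK-kd replicate 3, without which the log2 fold change was -0.98, under the minimum. FAK-kd over FAK-/- cells gave -0.33 (95% interval -0.63 to -0.03, adjusted p = 0.197, edgeR). Over the alternative fits in edgeR or DESeq2 this was -0.45 to -0.16, with a lowest adjusted p of 0.0294, so the result depended on the setting.

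*Pdgfrb* differed most of the 9 genes between FAK-WT cells and each other line among those with over 1 CPM. It lies on the plus strand at chr18:61045150-61085061 (ENSMUSG00000024620) and encodes the β receptor of mural cells and fibroblasts. Levels were 3.78, 6.87 and 5.85 CPM in FAK-WT, 25.1, 26.0 and 26.2 CPM in FAK-/-, and 25.0, 35.6 and 38.9 CPM in FAK-kd cells. Levels in FAK-WT cells were far below the rest, and FAK-kd replicate 1 was close to the FAK-/- libraries. *Pdgfrb* fell 4.11-fold below FAK-/- cells (log2 fold change -2.04, SE 0.17, adjusted p = 4.3e-07, edgeR) and 5.29-fold below FAK-kd cells (-2.40, SE 0.17, adjusted p = 7.3e-08, edgeR). FAK-WT replicate 1 had only 3 *Pdgfrb* counts, and without it the values were -2.02 and -2.38. Between FAK-kd and FAK-/- cells the difference was 0.36 (95% interval 0.07 to 0.65, adjusted p = 0.130, edgeR), which did not pass. That depended on the setting: over the alternative fits in edgeR or DESeq2 it was 0.23 to 0.52, with a lowest adjusted p of 0.00942.

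The summed level of mural cell markers was also lowest in FAK-WT cells, carried largely by *Acta2*. The 10 listed of 11 mural markers summed to 80.6 to 103 CPM in FAK-WT, 166 to 214 CPM in FAK-/- and 231 to 264 CPM in FAK-kd libraries, and only *Acta2* and *Cspg4* had a mean of at least 1 CPM over all libraries. *Acta2*, the smooth muscle actin gene, was at 0, 1.49 and 1.44 CPM in FAK-WT cells, 72.2 to 78.7 CPM in FAK-/- cells and 100 to 118 CPM in FAK-kd cells. Of the 10, *Acta2* was called lower and *Des*, the desmin gene, higher in both FAK-WT comparisons, and the median log2 fold changes were -0.11 and -0.17. By adjusted p-value alone 1 was higher and 1 lower in FAK-WT over FAK-/- cells (20% of 10). In FAK-WT over FAK-kd cells 1 was higher and 2 lower (30%). All genes stood at 18% and 17.7%. *Des* had 2, 14 and 12 counts in FAK-WT and at most 1 in any other library. The defining pericyte gene *Rgs5* and the smooth muscle genes *Myh11* and *Cnn1* were at or near 0 in all 3 lines. Fibroblast markers, 10 of 11 listed, summed to 9176 to 9321, 8452 to 9120 and 9406 to 10209 CPM in the same order. *Ptk2* also differed, as given above. The part of these markers in the receptor result was not tested.

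**Figure D2:**
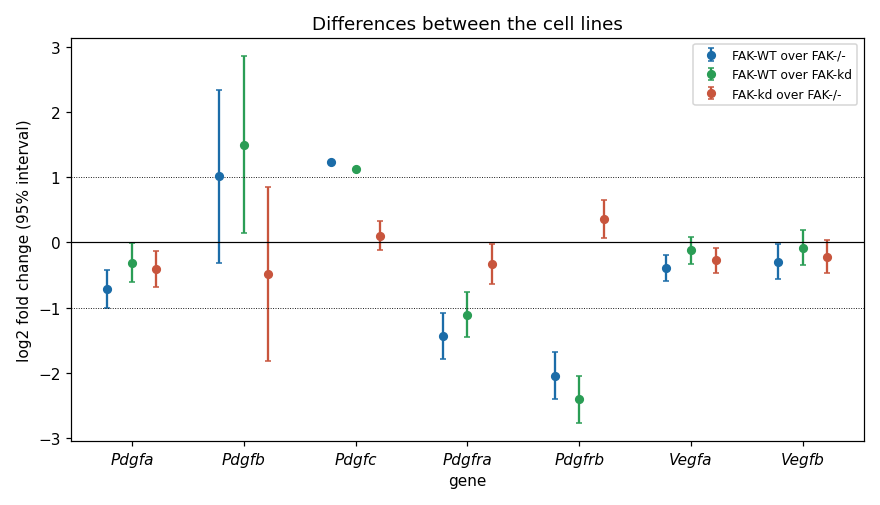
Log2 fold change (y axis) of 7 genes in 3 comparisons, with 95% intervals from edgeR's fit of all 9 libraries and dotted lines at the fold minimum. *Pdgfrb* and *Pdgfra* lie below -1 in both FAK-WT comparisons, *Pdgfc* above 1 (no interval, since it was chosen on these comparisons), and *Pdgfb*, with 1 to 23 counts a library, has the widest intervals.

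A gene was called at an adjusted p-value over all genes of 0.05 or below if its log2 fold change was also 1 or more in size. Of the 8 genes other than *Pdgfc*, 2 were called in FAK-WT over FAK-/- cells, where 5.38% of all genes were, and the same 2, *Pdgfra* and *Pdgfrb*, in FAK-WT over FAK-kd cells, where 5.26% were. By adjusted p-value alone, 4 of 8 (*Pdgfra*, *Pdgfrb*, *Pdgfa* and *Vegfa*) fell in FAK-WT relative to FAK-/- cells, beside 18% of all genes in either direction, and 2 of 8 in FAK-WT over FAK-kd cells, beside 17.7%. In FAK-kd over FAK-/- cells 1 of 9 was called, beside 2.01% of all genes, or 7.84% by adjusted p-value alone. That gene was *Vegfc*, which had at most 16 counts. The median fitted log2 fold change of the 8 genes other than *Pdgfc* was -0.55, -0.71 and -0.30 in the 3 comparisons, beside 0.0 over all genes tested. It rests in part on genes near the floor, and with *Pdgfc* included it was -0.39, -0.31 and -0.27. edgeR's filter for low counts kept 6 of the 9 genes, all but *Pdgfb*, *Pdgfd* and *Vegfc*. Over the 5 kept genes other than *Pdgfc* the median was -0.71, -0.31 and -0.27, beside -0.02, -0.02 and 0.01 over all genes kept. Of all genes kept, 7.10%, 6.82% and 2.83% were called, and 26.7%, 26.2% and 11.9% passed by adjusted p-value alone.

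*Vegfa*, the main angiogenic factor of the family, had the highest CPM of the 9 genes, a scale that does not correct for gene length. Per length *Vegfb* was higher, as given below. It lies on the minus strand at chr17:46016993-46032369 (ENSMUSG00000023951) and was at 66.7, 67.0 and 64.9 CPM in FAK-WT, 82.0, 81.1 and 96.8 CPM in FAK-/-, and 63.3, 77.4 and 74.9 CPM in FAK-kd cells. FAK-/- libraries were above all others, and FAK-WT and FAK-kd libraries overlapped. The difference of FAK-WT from FAK-/- cells was -0.39 (95% interval -0.60 to -0.19, adjusted p = 0.00921, edgeR), below the fold minimum. It was -0.39 without FAK-WT replicate 1 as well, but without FAK-WT replicate 3 the adjusted p was 0.0663. FAK-WT and FAK-kd cells differed by -0.12 (-0.33 to 0.08, adjusted p = 0.461, edgeR), an interval that leaves out a change of 1 in either direction. FAK-kd over FAK-/- cells gave -0.27 (-0.46 to -0.08, adjusted p = 0.0823, edgeR), which did not pass.

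*Vegfb* and *Vegfc* showed opposite detection. *Vegfb* (ENSMUSG00000024962, minus strand, chr19:6982473-6987651), a ligand of the receptor Flt1, was at 45.3, 52.6 and 46.8 CPM in FAK-WT, 54.3, 52.1 and 74.5 CPM in FAK-/- and 49.0, 52.5 and 54.2 CPM in FAK-kd cells. The lines overlapped, FAK-/- replicate 3 alone stood apart, and no difference passed (adjusted p = 0.125, 0.722 and 0.321 in the order above, edgeR). For *Vegfb* in FAK-WT over FAK-/- cells this moved with the library left out. The log2 fold change was -0.38 without FAK-/- replicate 2 (adjusted p = 0.0494, edgeR) and -0.11 without FAK-/- replicate 3. *Vegfc* (ENSMUSG00000031520, plus strand, chr8:54077606-54187096), the lymphatic growth factor gene, had 0, 2 and 10 counts in FAK-WT, 2, 1 and 0 in FAK-/-, and 13, 16 and 10 in FAK-kd cells. The mean of the FAK-kd libraries was at least 3.82-fold that of FAK-/- libraries taken at the floor of 3 counts each. *Vegfc* passed the test there (adjusted p = 0.0168, edgeR). The call was lost without FAK-kd replicate 2 (adjusted p = 0.0694). In FAK-WT cells its level was set by replicate 3, and neither FAK-WT comparison passed (adjusted p = 0.130 and 0.290, edgeR).

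Levels of different genes can be compared only per length. On the scale of CPM per kilobase of exons, *Vegfb* was the highest of the 9 genes in every line, with means of 30.0, 37.6 and 32.3 in FAK-WT, FAK-/- and FAK-kd cells, followed by *Pdgfa* and *Vegfa*, whose order differed between lines. *Pdgfa* had means of 12.2, 21.6 and 16.4 and *Vegfa* of 15.5, 20.2 and 16.8, and the means of these neighbours lay within 1 SD (the larger of both) of each other in FAK-/- and FAK-kd cells. *Pdgfc*, at 7.15, 2.95 and 3.18, came next in FAK-WT cells only, since *Pdgfrb* was above it elsewhere (1.00, 4.70 and 6.05) and *Pdgfra* was at 1.10, 3.10 and 2.46.

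The make-up of the PDGF genes therefore differed between the lines, which is described here without a test because *Pdgfc* was chosen for its rise. *Pdgfc* made up 37.3 ± 7.81% of the summed PDGF ligand level in FAK-WT cells (SD, n = 3; 32.7% to 46.3%), 12.1 ± 1.38% in FAK-/- cells and 16.2 ± 0.939% in FAK-kd cells. The highest share was in FAK-WT replicate 1, without which the FAK-WT mean was 32.8%. Summed ligand levels were 19.5 ± 2.09, 24.7 ± 4.91 and 19.6 ± 0.247 CPM per kb, so the sum was about level between FAK-WT and FAK-kd cells while its composition was not. Summed receptor levels were 2.11 ± 0.373, 7.80 ± 0.305 and 8.51 ± 1.88 CPM per kb. Ligand transcripts exceeded receptor transcripts 9.33 ± 0.710-fold in FAK-WT, 3.18 ± 0.768-fold in FAK-/- and 2.39 ± 0.614-fold in FAK-kd cells. The ratio of *Pdgfra* to *Pdgfrb* was 1.15 ± 0.274, 0.660 ± 0.0887 and 0.407 ± 0.0130, with no overlap between lines. FAK-WT replicate 1 had a ratio of 1.46 from 8 and 3 counts, and replicates 2 and 3 had 0.930 and 1.07, a mean of 0.998. Without replicate 1 the FAK-WT means were 20.7 and 2.31 CPM per kb for ligands and receptors, and 8.95 for their ratio. *Vegfa* held 34.0%, 35.2% and 34.0% of the sum of *Vegfa*, *Vegfb* and *Vegfc* per kb in the 3 lines. That sum leaves out *Vegfd* and *Pgf*, so it is not the whole VEGF family.

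**Figure D3:**
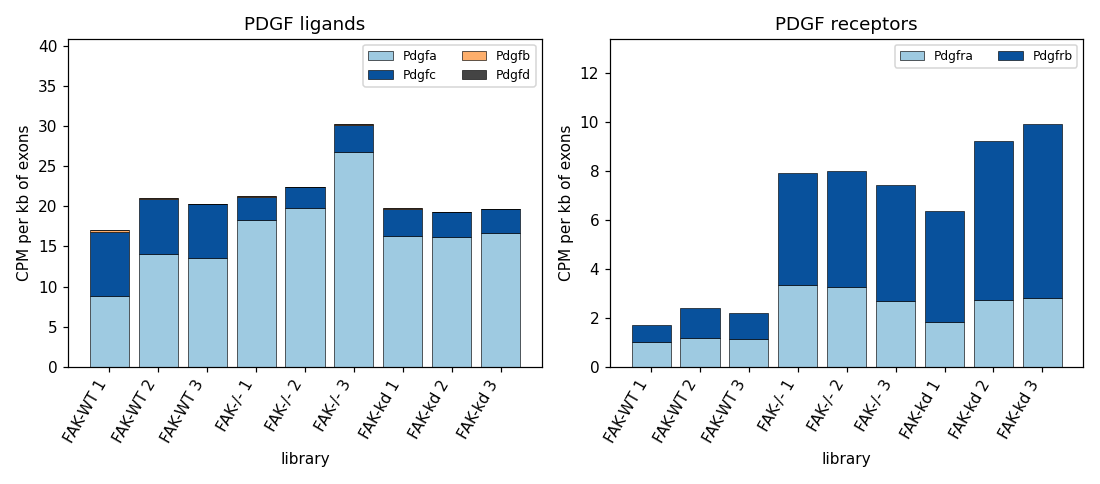
Stacked bars from 0 of CPM per kb of exons in each of 9 libraries, for the 4 PDGF ligand genes (left) and the 2 receptor genes (right). *Pdgfc* takes 32.7% to 46.3% of the ligand bar in FAK-WT libraries and 11.1% to 17.2% in the others, and the receptor bars are 1.69 to 2.42 in FAK-WT and 6.38 to 9.93 elsewhere.

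The other ligands and receptors of both families, 8 genes, held 1 call up and 1 down in FAK-WT over FAK-/- cells, 1 up in FAK-WT over FAK-kd cells, and 1 down in FAK-kd over FAK-/- cells. These are 25%, 12.5% and 12.5% of the 8, beside 5.38%, 5.26% and 2.01% of all genes. The median log2 fold changes of the 8 genes were -0.16, -0.23 and 0.08. *Nrp1*, which encodes neuropilin, a co-receptor for VEGF-A and for PDGFs, was, like *Pdgfc*, highest in FAK-WT cells. It was at 41.5, 33.9 and 34.6 CPM in FAK-WT, 13.0, 13.6 and 13.4 CPM in FAK-/- and 14.2, 11.4 and 12.0 CPM in FAK-kd cells, with FAK-WT libraries above all others. *Nrp1* rose by 1.40 (SE 0.11, adjusted p = 2.6e-07, edgeR) over FAK-/- and by 1.49 (SE 0.11, adjusted p = 1.3e-07, edgeR) over FAK-kd cells, and did not pass between these (-0.09, adjusted p = 0.648, edgeR). Without FAK-WT replicate 1 the rises were 1.36 and 1.45.

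*Pgf* encodes placental growth factor, a ligand of Flt1. Its levels were 3.78, 8.54 and 8.91 CPM in FAK-WT, 27.0, 26.4 and 25.5 CPM in FAK-/-, and 11.2, 13.3 and 13.5 CPM in FAK-kd cells. The 3 lines were fully separate, with FAK-kd in between. *Pgf* fell in FAK-WT cells by 1.63 against FAK-/- cells (SE 0.13, adjusted p = 2.7e-07, edgeR), and FAK-kd cells were lower than FAK-/- cells by a log2 fold change of -1.05 (SE 0.11, adjusted p = 2.3e-05, edgeR). The latter went under the fold minimum when FAK-kd replicate 1 was left out. FAK-WT over FAK-kd cells gave -0.58 (adjusted p = 0.00432, edgeR). *Pgf* had 3 counts in FAK-WT replicate 1, without which it was at -1.59 against FAK-/- and -0.54 against FAK-kd cells.

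Among the VEGF receptors, *Flt1* was at 35.9 to 50.4 CPM in all 9 libraries and did not pass in any comparison (adjusted p = 0.370, 0.246 and 0.873, edgeR). *Kdr*, the main endothelial VEGF receptor gene, had at most 3 counts and *Flt4*, the lymphatic receptor gene, at most 1 count in any library, so neither was detectable at this depth. *Nrp2*, the second neuropilin gene, was at 200 to 229 CPM in FAK-WT, 240 to 251 CPM in FAK-/- and 255 to 280 CPM in FAK-kd cells. The FAK-WT level of *Nrp2* was below FAK-kd by -0.29 on the log2 scale (adjusted p = 0.00723, edgeR), and by -0.26 without FAK-WT replicate 1. It did not pass without FAK-kd replicate 3 (adjusted p = 0.0621, edgeR) or without FAK-WT replicate 3, and 0.0621 was the highest adjusted p with 1 library left out. *Vegfd*, another lymphatic factor gene, was at 21.4 to 31.6, 22.7 to 24.8 and 25.5 to 30.0 CPM, with adjusted p of 0.0503 for FAK-WT over FAK-/- cells (edgeR). *Pdgfrl*, a gene with homology to PDGF receptors, stayed at or below 12 counts.

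**Figure D4:**
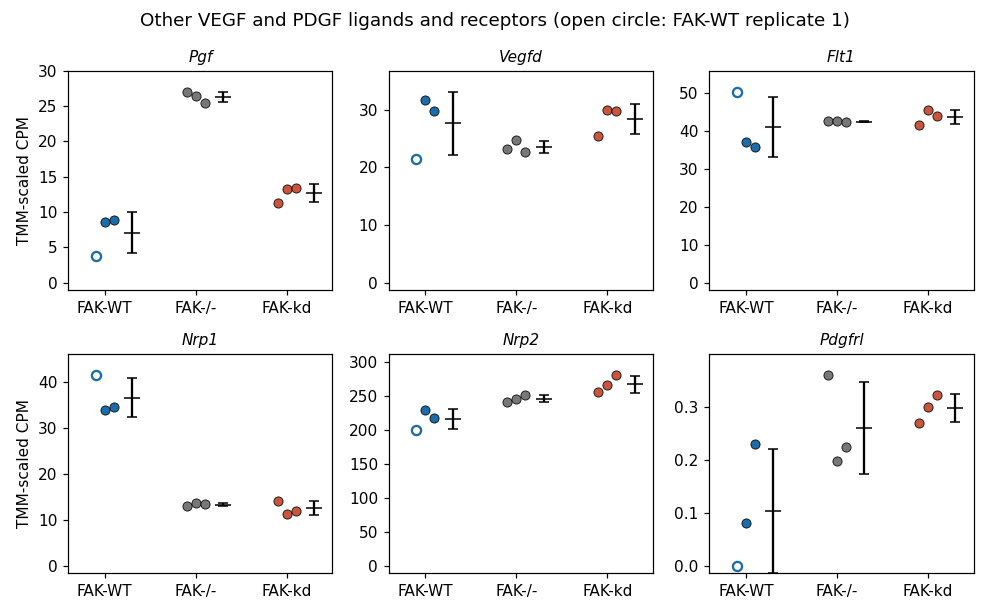
TMM-scaled CPM (linear axis) of 6 further VEGF and PDGF family genes in each library, with points for libraries, an open circle for FAK-WT replicate 1 and mean ± SD of 3 libraries per line. *Nrp1* lies at 33.9 to 41.5 CPM in FAK-WT cells and at 11.4 to 14.2 CPM elsewhere, *Pgf* falls in the reverse direction with FAK-kd in between, and *Flt1* overlaps in all lines.

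The genes whose pattern over the 9 libraries was most like that of *Pdgfc* were found among 8649 genes with a mean of at least 10 CPM, by the root mean square difference of centred log2(CPM + 0.5). They were *Plppr2* (0.101), *Cd300lb* (0.121), *Nudt19* (0.138), *Steap1* (0.143) and *Lhfp* (0.147). *Plppr2*, the closest, had means of 27.6, 11.3 and 11.5 CPM in FAK-WT, FAK-/- and FAK-kd cells. For *Pdgfrb* they were *Synpo2* (0.202), *Sdc3* (0.262), *Kcnf1* (0.263), *Gas1* (0.275) and *Fzd1* (0.293), of which *Synpo2* had means of 11.9, 58.0 and 58.9 CPM. These genes were chosen for likeness, so their differences between the lines are no further evidence.

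Genes that process or bind the ligands were called in the FAK-WT comparisons at about the share of all genes. Of 18 listed, 16 were in the table, and 1, 1 and 2 were called in FAK-WT over FAK-/-, FAK-WT over FAK-kd and FAK-kd over FAK-/- cells. These are 6.25%, 6.25% and 12.5% of the 16, beside 5.38%, 5.26% and 2.01% of all genes. The medians were 0.23, 0.04 and -0.06. By adjusted p-value alone 3 were higher and 4 lower in FAK-WT over FAK-/- cells (43.8% of 16), 1 and 1 in FAK-WT over FAK-kd cells (12.5%), and 1 and 4 in FAK-kd over FAK-/- cells (31.2%). All genes stood at 18%, 17.7% and 7.84%, and those kept by edgeR's filter for low counts at 26.7%, 26.2% and 11.9%. *Plau*, encoding the urokinase that cuts PDGF-D, was at 6.29, 12.7 and 11.0 CPM in FAK-WT and 4.85 to 6.15 CPM in FAK-kd cells. It rose by 1.06 over FAK-kd cells (SE 0.17, adjusted p = 0.000294, edgeR), a call lost without FAK-WT replicate 2 or without FAK-kd replicate 2, and by 1.12 without FAK-WT replicate 1. *Plat*, chosen after its values were seen, encodes the tissue plasminogen activator that cuts PDGF-C. *Plat* was at 24.7 to 27.7 CPM in FAK-WT, 17.4 to 19.9 CPM in FAK-/- and 27.1 to 28.0 CPM in FAK-kd cells, and was higher than in FAK-/- cells by 0.41 in FAK-WT (adjusted p = 0.00647, edgeR) and by 0.55 in FAK-kd cells (adjusted p = 0.00108, edgeR). The remaining calls, *Sulf2* in both comparisons with FAK-/- cells and *Mmp9* in FAK-kd over FAK-/- cells, were of genes with at most 19 counts in any library and are named because they complete the count. With FAK-kd replicate 2 or 3 or FAK-/- replicate 1 or 2 left out, no gene of the list was called in FAK-kd over FAK-/- cells, and without FAK-WT replicate 2 none was in FAK-WT over FAK-/- cells.

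Of 32 genes that carry the signal inside the cell from PDGF receptors, from adaptors to Ras, MAP kinases and Akt, none was called in any comparison (edgeR, with fold minimum), and none by DESeq2. Of all genes, edgeR called 5.38%, 5.26% and 2.01% in the 3 comparisons. By adjusted p-value alone 6 of the 32 were higher and 4 lower in FAK-WT over FAK-/- cells (31.2%), 6 and 3 in FAK-WT over FAK-kd cells (28.1%), and 0 and 2 in FAK-kd over FAK-/- cells (6.25%). All genes stood at 18%, 17.7% and 7.84%. Those kept by edgeR's filter for low counts, which kept all 32, stood at 26.7%, 26.2% and 11.9%. An unadjusted p below 0.05 was reached by 16, 16 and 6 of the 32 in the same order. The medians were 0.05, 0.04 and -0.01. *Nck2*, an adaptor gene chosen after its values were seen, had the lowest values in both FAK-WT comparisons, with log2 fold changes of -0.56 and -0.59, and -0.52 and -0.55 without FAK-WT replicate 1.

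Of 17 genes that attenuate receptor signalling, 1 was called lower in both FAK-WT comparisons and none was called in FAK-kd over FAK-/- cells, with medians of -0.06, -0.13 and -0.05. By adjusted p-value alone 1 was higher and 6 lower in FAK-WT over FAK-/- cells, 2 and 5 in FAK-WT over FAK-kd cells (41.2% of 17 in each), and 1 and 2 in FAK-kd over FAK-/- cells (17.6%). All genes stood at 18%, 17.7% and 7.84%, and those kept by the filter at 26.7%, 26.2% and 11.9%. The call was 5.88% of the 17 in each FAK-WT comparison, beside 5.38% and 5.26% of all genes. In FAK-kd over FAK-/- cells 6 of the 17 had an unadjusted p below 0.05 in edgeR, and DESeq2 called none either. The called gene was *Spry1*, which encodes a feedback inhibitor of receptor tyrosine kinases and had 0, 18 and 13 counts in FAK-WT, 52, 42 and 36 in FAK-/-, and 35, 48 and 49 in FAK-kd cells. *Spry1* fell by 1.79 (SE 0.37, adjusted p = 0.00266, edgeR) and 1.64 (SE 0.36, adjusted p = 0.00477, edgeR). It was not detectable at the depth of FAK-WT replicate 1, without which the log2 fold changes were -1.76 and -1.60, and the call against FAK-kd cells was lost without FAK-WT replicate 3. *Cblb*, chosen after its values were seen, encodes a ubiquitin ligase of receptors and stood just short of the fold minimum. *Cblb* was at 35.2 to 41.5 CPM in FAK-WT, 68.3 to 71.1 CPM in FAK-/- and 61.7 to 77.5 CPM in FAK-kd cells, with log2 fold changes of -0.92 and -0.94, and -0.94 and -0.96 without FAK-WT replicate 1.

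Among 20 genes of the early response to growth factors, 1 was higher and 1 lower in each FAK-WT comparison and none was called in FAK-kd over FAK-/- cells. In the last comparison 8 of the 20 had an unadjusted p below 0.05 in edgeR, and DESeq2 called none either. The medians were -0.31, -0.02 and -0.08. *Ccl2*, a monocyte chemoattractant gene, was at 6.29, 10.9 and 11.7 CPM in FAK-WT, 1.70 to 2.94 CPM in FAK-/- and 1.77 to 3.09 CPM in FAK-kd cells. *Ccl2* rose by 2.21 (SE 0.26, adjusted p = 1.6e-05, edgeR) and 2.03 (SE 0.25, adjusted p = 3.3e-05, edgeR), or by 2.29 and 2.11 without FAK-WT replicate 1. The gene that was lower was *Ccn2*, with 0 counts in each FAK-WT library, 5 to 15 in FAK-/- and 6 to 8 in FAK-kd libraries. By adjusted p-value alone 3 were higher and 8 lower in FAK-WT over FAK-/- cells (55% of 20), beside 3 and 4 in FAK-WT over FAK-kd cells (35%). All genes stood at 18% and 17.7%, and those kept by the filter at 26.7% and 26.2%. The calls were 10% of the 20 in each FAK-WT comparison, beside 5.38% and 5.26% of all genes.

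Hypoxia is a known inducer of *Vegfa*, and of 20 genes of that pathway 1 was higher and 2 lower in FAK-WT over FAK-/- cells, 1 and 1 in FAK-WT over FAK-kd cells, and 0 and 1 in FAK-kd over FAK-/- cells. The medians were 0.23, 0.14 and 0.04. By adjusted p-value alone 8 were higher and 4 lower in FAK-WT over FAK-/- cells (60% of 20), 7 and 2 in FAK-WT over FAK-kd cells (45%), and 3 and 4 in FAK-kd over FAK-/- cells (35%). All genes stood at 18%, 17.7% and 7.84%, and those kept by the filter at 26.7%, 26.2% and 11.9%. The calls were 15%, 10% and 5% of the 20, beside 5.38%, 5.26% and 2.01% of all genes. *Epas1*, which encodes a hypoxia-inducible factor subunit, was at 2.52, 4.23 and 3.92 CPM in FAK-WT, 25.9 to 30.3 CPM in FAK-/- and 14.5 to 15.0 CPM in FAK-kd cells. *Epas1* fell by 2.78 (SE 0.12, adjusted p = 5.3e-10, edgeR) and 1.87 (SE 0.12, adjusted p = 2.6e-08, edgeR), with only 2 counts in FAK-WT replicate 1. *Egln3*, a prolyl hydroxylase gene, was lower than in FAK-/- cells in both other lines, by a log2 fold change of -1.37 in FAK-WT and -1.26 in FAK-kd cells (adjusted p = 3.1e-06 and 8.0e-06, edgeR). *Car9*, a carbonic anhydrase gene, rose by 1.31 and 1.48 in FAK-WT cells (adjusted p = 2.5e-05 and 7.8e-06, edgeR). Without FAK-WT replicate 1 the log2 fold changes were -2.77 and -1.86 for *Epas1*, -1.41 for *Egln3* in FAK-WT over FAK-/- cells, and 1.25 and 1.41 for *Car9*. Members of the pathway thus moved in both directions.

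**Figure D5:**
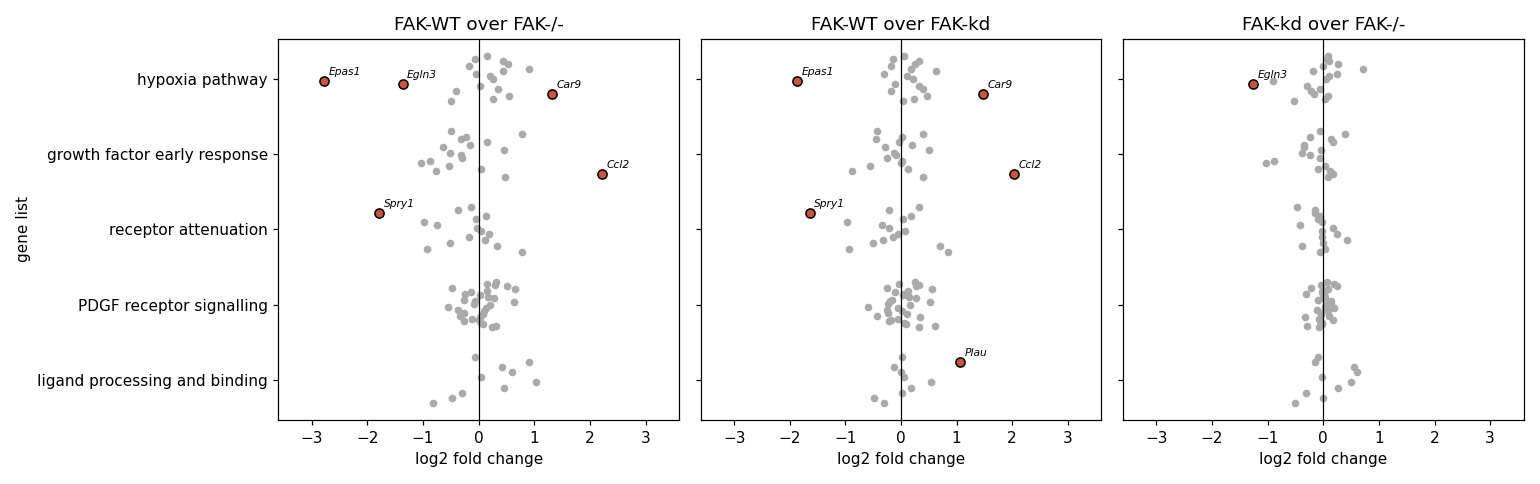
Log2 fold change (x axis) of the genes of 5 lists with a mean of at least 1 CPM, with one panel per comparison and named larger points for genes past both criteria (spread on the y axis within a list is only for legibility). Calls are few in each list: *Ccl2*, *Spry1*, *Epas1* and *Car9* lie outside 1 in both FAK-WT comparisons, and the PDGF receptor signalling genes all lie within it.

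Counts were assigned without regard to strand. Antisense or microRNA genes annotated over *Pdgfa*, *Pdgfb*, *Pdgfc* and *Pdgfra* were not in the table, which holds no gene with 0 counts in all libraries. Their absence may mean that they had no reads. Any reads they had cannot be told apart from those of the genes named here. With 3 libraries against 3, an exact permutation test of a single gene (two-sided) cannot give a p below 0.1, which it gave for *Pdgfra* and *Pdgfrb* in both FAK-WT comparisons. It gave the same 0.1 for *Pdgfa* in all 3 comparisons, for *Vegfa* in both with FAK-/- cells, and for *Vegfc* in both with FAK-kd cells.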

How the data were processed

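RNA-seq libraries of FAK-/-, FAK-WT- and FAK-kd-expressing mouse SCC cells (3 each) were analysed, grouped by sample title. The authors prepared unstranded paired-end libraries, pseudoaligned the reads with kallisto (0.43.1 in the submitters' processing notes), and summed transcripts per gene with tximport. The authors deposited the resulting expected counts (kallisto's estimated counts) in whole numbers, not scaled to library size, on mm10. The transcriptome release is not given in the sources used here. Positions and symbols came from GENCODE vM21 (18856 of 19044 identifiers), and promoters from RefSeq.

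All genes were tested in 1 fit of the 9 libraries with edgeR 4.0.16 in R 4.3.3 (quasi-likelihood test, TMM, cell line as factor, no filter). P-values were adjusted by Benjamini-Hochberg over all genes. Calls followed the study's criteria, an adjusted p up to 0.05 with a log2 fold change of 1 or more in size. Standard errors and 95% intervals were derived from the F statistic. Steps were tested on simulated data. The alternatives were DESeq2 1.42.0, other scalings and filters, glmTreat, fits of 2 groups, a replicate block and leaving out each library.

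The members and gene lists were chosen with earlier results of these data known. All 9 members, the other family genes and *Ptk2* were named. Of each list, up to 4 genes with the largest fold change per FAK-WT comparison were named, among those called with a mean of at least 1 CPM. For *Pdgfc* and *Pdgfrb*, the 5 most similar genes were named. Replicate numbers did not pair the libraries.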

Additional observations from a re-analysis of the deposited data

How the results depend on the processing

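No direction reversed under the alternatives for the 8 members compared, all but *Pdgfd*. Called members numbered 2, 2 and 1 in FAK-WT over FAK-/-, FAK-WT over FAK-kd and FAK-kd over FAK-/- cells. When 10 or more counts were required in each library they were 0, 0 and 0, since that filter removes the receptor genes and *Vegfc*. With glmTreat, which tests against the fold minimum itself, they were 1, 1 and 0, with *Pdgfrb* called in both FAK-WT comparisons. In FAK-kd over FAK-/- cells filterByExpr, which removes *Vegfc*, and DESeq2 each gave 0. Leaving out 1 library gave 1 to 3 in FAK-WT over FAK-kd cells (1 without FAK-kd replicate 3, 3 without FAK-WT replicate 3, where *Pdgfb* was added) and 0 to 1 in FAK-kd over FAK-/- cells (0 without FAK-kd replicate 2).

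Of the 113 genes in the other lists, 9, 7 and 4 were called (7.96%, 6.19% and 3.54%), beside 5.38%, 5.26% and 2.01% of all genes. The filter for low counts kept 104 of the 113, and 7.10%, 6.82% and 2.83% of all genes it kept were called. The minimum of 10 counts gave 2, 2 and 0. glmTreat gave 5 in FAK-WT over FAK-/- and 0 in FAK-kd over FAK-/- cells, and DESeq2 gave 2 in the latter, where leaving out 1 library gave 2 to 4. Counts for single lists moved by at most 2 genes. With the longest transcript as length, the *Pdgfra* to *Pdgfrb* ratio was 1.67, 0.958 and 0.591 in FAK-WT, FAK-/- and FAK-kd cells, in the same order as before.

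Same-numbered libraries of different lines did not deviate together (mean correlation across genes -0.00699 over 9 pairs, against 0.00317 over 18 pairs with different numbers). With a replicate block 2, 2 and 1 members were called. FAK-WT replicate 1 limits what can be seen below 3.78 CPM.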
